A study of Mus musculus with 51 samples.

Results

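Genes of the B lymphocyte lineage were followed by maturation stage in RNA from mouse femurs. The members were 39 genes taken by name from a list drawn up by stage and role. The rule uses no measured value, but the list was written with earlier results of these data known. All 39 were found among the 23358 entries of the vitamin C (VitC) femur files and among the 25938 entries of the Tet femur table. They comprised 6 precursor genes (Rag1, Rag2, Dntt, Vpreb1, Igll1 and Il7r), 4 genes of mature B cells (Ms4a1, Cr2, Fcer2a and Cd22), Vpreb3, 8 transcription factors, 7 genes of B cell receptor signalling, 10 surface and survival genes and 3 plasma cell genes. All mice were on the C57BL/6 strain. Mice with the Gulo tm1Mae allele on both chromosomes cannot make VitC. One group drank 3.3 g/L VitC for 20 weeks (VitC+), and the other drank it for 15 weeks and then went without for 5 weeks (VitC+/-). Wild type mice (WT) were of the same age of 20 weeks and needed no supplement. The Tet experiment used 11-week-old mice, all carrying Prrx1-Cre, a transgene that recombines in limb bud mesenchyme and its descendants. Its groups were Prrx1-Cre mice with unmodified Tet alleles (Ctrl) and mice with floxed alleles on both chromosomes of Tet1 (Tet1 cKO), of Tet2 (Tet2 cKO) or of both genes (Tet1/2 cKO). Each of the 7 groups had 3 RNA libraries. By the study's methods the femur libraries were biological triplicates, and those of the VitC groups came from independent animals. The marrow had been flushed out of the femurs and the periosteum removed before RNA extraction.

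B lymphocytes arise in bone marrow. Progenitors join immunoglobulin heavy chain gene segments with the Rag1 and Rag2 recombinase, test the new chain in a receptor built with the surrogate light chain, and divide in response to interleukin 7. Once a light chain is joined, the recombinase and surrogate light chain genes are shut off, and the cells gain surface proteins of mature B cells such as CD20, CD21, CD22 and CD23. Plasma cells, the antibody-secreting end stage, lose most B cell genes.

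The depth of the VitC libraries was read from the steps between low values and came to 7.60 M reads (M, mega) in WT 1 and to between 31.2 and 47.5 M in the other 8. The Tet libraries held 28.6 to 49.8 M reads. Gulo, read over the whole gene, had 9, 39 and 0 reads in WT 1, 2 and 3, had 14, 3 and 3 in VitC+ 1, 2 and 3, and had 1, 1 and 2 in VitC+/- 1, 2 and 3. Gulo was also at 0, 4.06 and 0 normalized counts in Ctrl 1, 2 and 3 of the Tet experiment, whose mice make their own VitC. The lack of Gulo reads in the library labelled WT 3 therefore cannot settle its label. VitC+ 1 stood above its group. The main counts are also given without WT 3 and without VitC+ 1. Not every call lost without them is named. Gene-level counts include exons outside the deleted part of Tet1 and Tet2, so they do not check the deletion. Tet2, for example, was at 2236, 2512 and 2251 normalized counts in Ctrl and at 2245, 2210 and 1834 in Tet2 cKO. Cd79a, a marker of the whole B lineage and itself a member, was present in every VitC library and ranged from 2.50 to 35.1 scaled RPKM.

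The promoters of 4 genes of the precursor stage and of the mature gene Cd22 are shown with short motifs marked. Ebf1 and the E proteins, which drive precursor gene expression, are known to bind motifs like the Ebf1 core and the E-boxes. The octamer, the only match in Vpreb3, is instead a motif of octamer factors such as Oct-2. Sequences are from RefSeq on GRCm38.p6 and run 5′ to 3′ on the strand of the gene over the 250 bases before a listed start site. For Cd22 this start lies inside the gene, whose 5′ end is at 30880342. For Vpreb3 it differs from the start at 75943024 used for its 5-hydroxymethylcytosine peaks below. Of the 39 members, 33 had a promoter entry. Capitals mark any match, on either strand, to the E-box CAGGTG, the E-box CAGCTG, the Ebf1 core CCCNNGGG and the octamer ATTTGCAT. No match overlaps another in the sequences shown.
Vpreb1, chr16:16869256-16869505, minus strand: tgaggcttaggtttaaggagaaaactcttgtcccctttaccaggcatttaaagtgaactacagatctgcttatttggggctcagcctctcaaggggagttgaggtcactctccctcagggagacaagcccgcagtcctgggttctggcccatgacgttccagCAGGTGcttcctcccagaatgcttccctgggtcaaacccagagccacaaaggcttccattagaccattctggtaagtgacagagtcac
Igll1, chr16:16863986-16864235, minus strand: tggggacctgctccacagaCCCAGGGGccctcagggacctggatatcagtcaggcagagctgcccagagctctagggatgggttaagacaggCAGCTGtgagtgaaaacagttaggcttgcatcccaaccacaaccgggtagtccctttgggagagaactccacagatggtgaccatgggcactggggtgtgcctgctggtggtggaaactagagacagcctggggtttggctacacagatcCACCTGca
Rag1, chr2:101649533-101649782, minus strand: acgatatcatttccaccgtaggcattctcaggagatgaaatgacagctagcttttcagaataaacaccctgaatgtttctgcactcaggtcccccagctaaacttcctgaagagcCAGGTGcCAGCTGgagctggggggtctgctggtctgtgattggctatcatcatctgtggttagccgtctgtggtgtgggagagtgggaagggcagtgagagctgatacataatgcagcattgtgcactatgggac
Vpreb3, chr10:75948050-75948299, plus strand: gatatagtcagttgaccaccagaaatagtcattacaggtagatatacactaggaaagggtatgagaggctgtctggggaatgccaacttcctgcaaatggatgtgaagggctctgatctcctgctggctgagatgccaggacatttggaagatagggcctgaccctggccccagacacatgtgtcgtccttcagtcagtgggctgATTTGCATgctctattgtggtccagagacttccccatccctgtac
Cd22, chr7:30879029-30879278, minus strand: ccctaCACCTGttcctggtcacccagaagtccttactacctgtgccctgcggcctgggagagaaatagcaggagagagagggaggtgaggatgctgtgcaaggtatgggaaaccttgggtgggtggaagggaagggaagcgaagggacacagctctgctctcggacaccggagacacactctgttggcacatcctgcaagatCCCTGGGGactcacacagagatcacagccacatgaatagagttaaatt
The E-box CAGGTG was present upstream of 15 of the 33 members, against 19.4% of all 27025 genes with an entry and 17.2% of all 32851 promoters. It was found in 3 of 6 precursor genes (Igll1, Rag1 and Vpreb1) and in 3 of 3 mature genes with an entry (Cd22, Cr2 and Fcer2a), so it did not separate the stages. The Ebf1 core was present in 6 of 33 members, against 13.4% of genes, and CAGCTG in 6 of 33, against 14.7%. The octamer was found upstream of Vpreb3 and Blnk, against 1.8% of genes. These are matches of letters and not measured binding.

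To ask how VitC withdrawal moved the B lineage, VitC+/- femurs were compared with VitC+ femurs. Of the 39 members, 37 passed the filter on low values (an RPKM of at least 1 in 3 of the 9 libraries), 22 were lower and 1 was higher at an adjusted p under 0.05 by limma. Of all 12586 genes tested, 7.52% were called lower and 5.93% higher. Rag1, Dntt, Vpreb1, Igll1, Vpreb3, Fcrla and Bank1 were below 1 in every VitC+/- library, as were Fcer2a and Bach2, which were not called. All these genes passed the filter only through VitC+ and WT libraries, so a lower call was the likelier outcome for them. Without the filter, 16 members were called lower and 0 higher, where 829 of all 19717 genes tested were called lower. The median log2 fold change was -1.0 over all 39 members, -2.50 over the 6 precursor genes and -0.82 over the 4 mature genes, against 0.02 over all genes tested. The member medians include Rag2 and Cr2, which were not tested. Fold changes are on the log2(scaled RPKM + 0.5) scale, which understates the change of low genes. In bulk RNA, fewer cells of a type and less RNA per cell cannot be told apart. How much marrow stayed in the flushed femurs of each group was not tested. The count of members called lower fell to 10 without VitC+ 2, to 10 without VitC+ 3 and to 9 without VitC+/- 1, and was 15 without VitC+ 1. Over all genes tested, calls of lower also fell in these 4 fits, from 946 of 12586. They came to 325 of 12485, 338 of 12468, 316 of 12431 and 416 of 12527, in the same order. The 8 member calls that remained whichever VitC+ or VitC+/- library was left out were Dntt, Vpreb3, Pou2af1, Spib, Btk, Cd72, Fcrla and Ly6d.

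**Figure D1:**
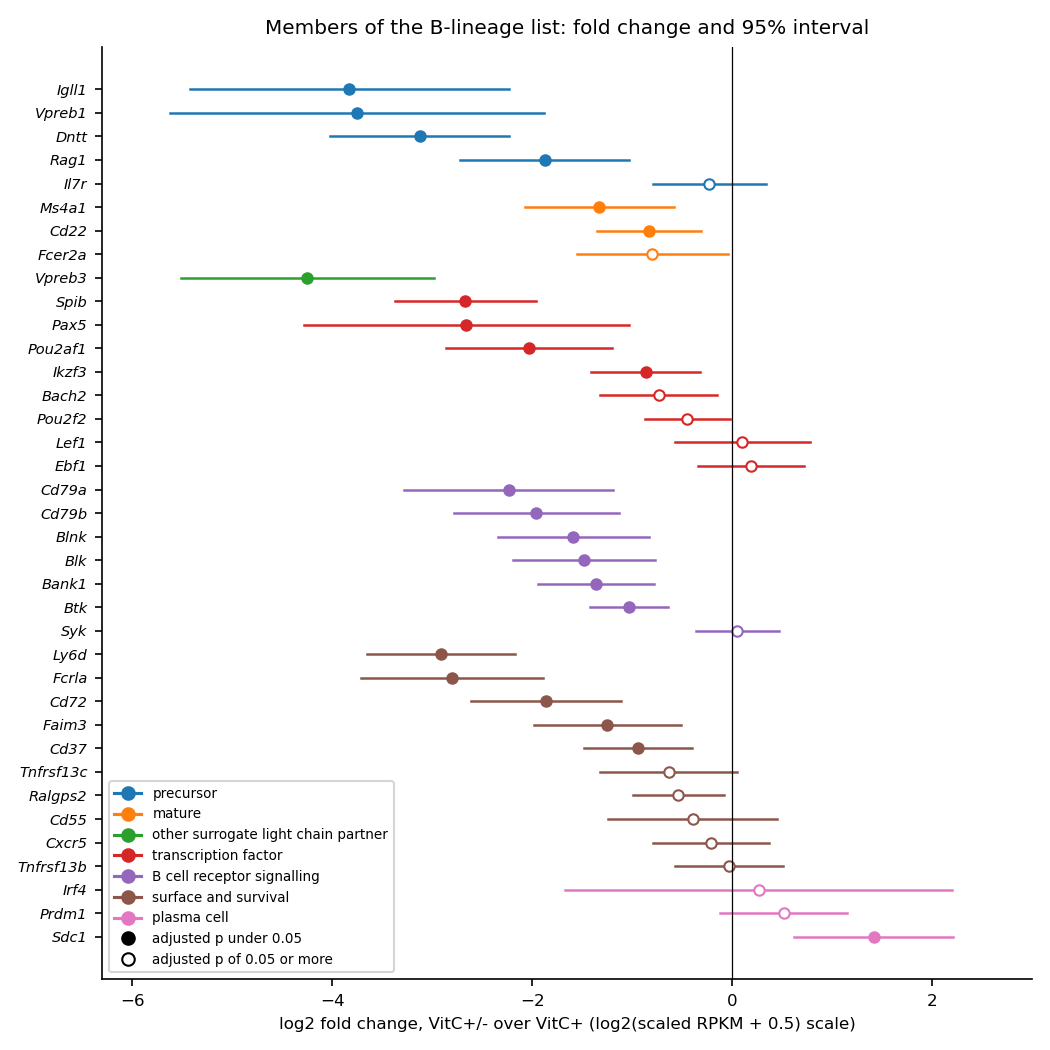
log2 fold change of the 37 tested members in VitC+/- over VitC+ femurs (points) with 95% intervals (lines), colored by role, filled where the adjusted p was under 0.05. Vpreb3, Igll1, Vpreb1 and Dntt lie farthest to the left, and Sdc1 is the filled point on the right.

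After withdrawal, 5 of the 6 precursor genes were at 0.444 scaled RPKM or lower in every library. Rag1, the catalytic subunit of the recombinase (chromosome 2, 101638252 to 101649532 on mm10), was at 0.623, 1.89 and 1.90 scaled RPKM in VitC+ 1, 2 and 3. It was at 0.00417, 0.00910 and 0.00903 in VitC+/- 1, 2 and 3, which corresponds to 1, 2 and 3 reads. All VitC+/- libraries lay far below all VitC+ libraries (log2 fold change -1.88, SE 0.38, adjusted p = 0.0153). Summed over each group, 1234 reads in VitC+ stood against 6 in VitC+/-, a depth-adjusted ratio of 212 with an exact 95% interval of 97.2 to 579 that covers counting error only. Rag2, its partner, did not pass the filter and was not tested. Its values were 0.159, 0.879 and 0.661 in VitC+ and 0, 0.00894 and 0.0177 in VitC+/-, again without overlap. The summed Rag2 reads were 245 against 4, a ratio of 63.2 (24.4 to 234).

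Dntt, the polymerase that adds untemplated bases at the joints, was at 3.74, 10.8 and 6.44 in VitC+ and at 0.444, 0.157 and 0.311 in VitC+/-. It fell by 3.12 on the log2 scale (SE 0.40, adjusted p = 0.00297), the mean in VitC+ being 23.0 times that in VitC+/-. The surrogate light chain has 2 parts, encoded by Vpreb1 and Igll1, which neighbour each other on chromosome 16. Vpreb1 was at 5.61, 10.4 and 9.47 in VitC+ and at 0.218, 0.0790 and 0.157 in VitC+/- (log2 fold change -3.75, SE 0.83, adjusted p = 0.0214). Igll1 was at 4.87, 12.7 and 9.77 in VitC+ and at 0.160, 0.105 and 0.138 in VitC+/- (log2 fold change -3.83, SE 0.71, adjusted p = 0.0116). Each had 14 reads over the 3 VitC+/- libraries, against 787 for Vpreb1 and 969 for Igll1 in VitC+. Reads of Vpreb1 can be split with its near-identical copy Vpreb2, which was between 0.269 and 1.22 in VitC+ and at most 0.130 in VitC+/-. Without VitC+ 2 the adjusted p of Rag1 rose to 0.0660, that of Vpreb1 to 0.0791 and that of Igll1 to 0.0518. Across the 6 fits that left out 1 library, the call held in 3 for Rag1, in 2 for Vpreb1, in 5 for Igll1 and in 6 for Dntt.

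Il7r, the interleukin 7 receptor chain, which T cells and innate lymphoid cells also carry, was the exception among the precursor genes. It was at 2.61, 2.72 and 2.37 in VitC+ and at 1.58, 3.23 and 1.81 in VitC+/-, so the groups overlapped. Its log2 fold change was -0.23 with a 95% interval of -0.79 to 0.34 (adjusted p = 0.578).

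**Figure D2:**
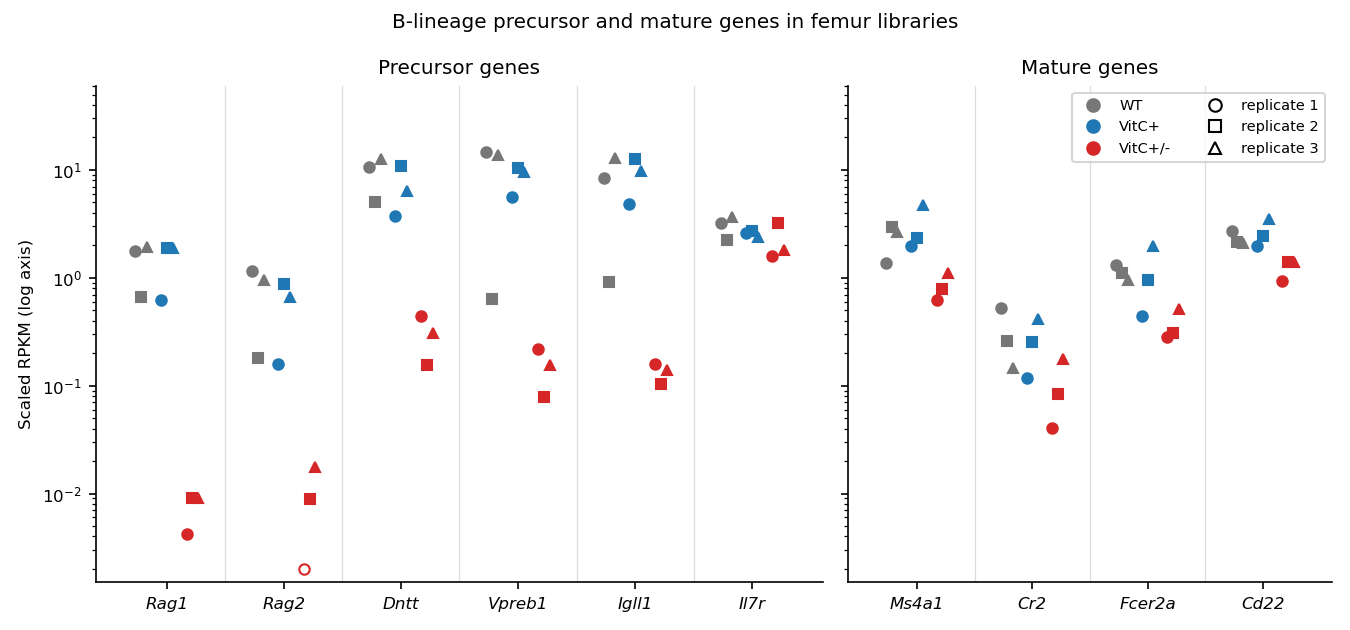
Scaled RPKM, on a log axis, of the 6 precursor genes (left) and the 4 mature genes (right) in each WT, VitC+ and VitC+/- femur library, 1 symbol per library. Rag2 in VitC+/- 1 was 0 and is the open symbol at the bottom, and Rag1, Rag2, Dntt, Vpreb1 and Igll1 are separated from the VitC+ libraries in all 3 VitC+/- libraries, while the groups lie closer together for Il7r and the mature genes.

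Of the 4 mature genes, 2 were called lower, 1 did not pass the test and 1 was not tested. Whether their change differed from that of the precursor genes was not tested. Ms4a1, which encodes CD20, was at 1.98, 2.32 and 4.71 in VitC+ and at 0.623, 0.781 and 1.11 in VitC+/-. The groups did not overlap, and the fall of 1.33 on the log2 scale passed the test (SE 0.33, adjusted p = 0.0330). Cd22, an inhibitory receptor of B cells, was at 1.96, 2.43 and 3.54 in VitC+ and at 0.936, 1.40 and 1.40 in VitC+/- (log2 fold change -0.83, SE 0.23, adjusted p = 0.0447). The call on Cd22 was lost in each of the 6 fits that left out 1 library, with an adjusted p of up to 0.149, and that on Ms4a1 in 4 of 6, with up to 0.113. Fcer2a, which encodes the low-affinity IgE receptor CD23, was at 0.441, 0.953 and 1.97 in VitC+ and at 0.283, 0.309 and 0.511 in VitC+/-, and did not pass the test (log2 fold change -0.80, 95% interval -1.55 to -0.045, adjusted p = 0.138). Cr2, the complement receptor CD21, did not pass the filter. It was at 0.118, 0.252 and 0.417 in VitC+ and at 0.0404, 0.0831 and 0.178 in VitC+/-, so these groups overlapped.

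Precursor and mature genes were set against each other within each library, as the mean log2(scaled RPKM + 0.5) of the 6 precursor genes minus that of the 4 mature genes. The difference was 0.93, 1.55 and 0.685 in VitC+ 1, 2 and 3 and was -0.21, -0.41 and -0.65 in VitC+/- 1, 2 and 3. The group means were 1.06 ± 0.45 and -0.42 ± 0.22 (SD, n = 3). They differed by -1.48, and by -1.56 without VitC+ 1. WT 1 and the library labelled WT 3 were at 1.52 and 1.79, but WT 2 was at -0.16, next to the highest VitC+/- library. The ratio of the summed scaled RPKM of the 2 gene sets needs no pseudocount. It was 3.91, 6.61 and 2.88 in VitC+ and 1.28, 1.40 and 0.764 in VitC+/-. Il7r supplied most of the precursor sum in VitC+/-. Without it the ratio was 3.33, 6.16 and 2.65 in VitC+, was 6.17, 1.15 and 7.2 in WT, and was 0.439, 0.139 and 0.198 in VitC+/-. No test was run on these scores, because the genes that form them were already compared one by one.

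**Figure D3:**
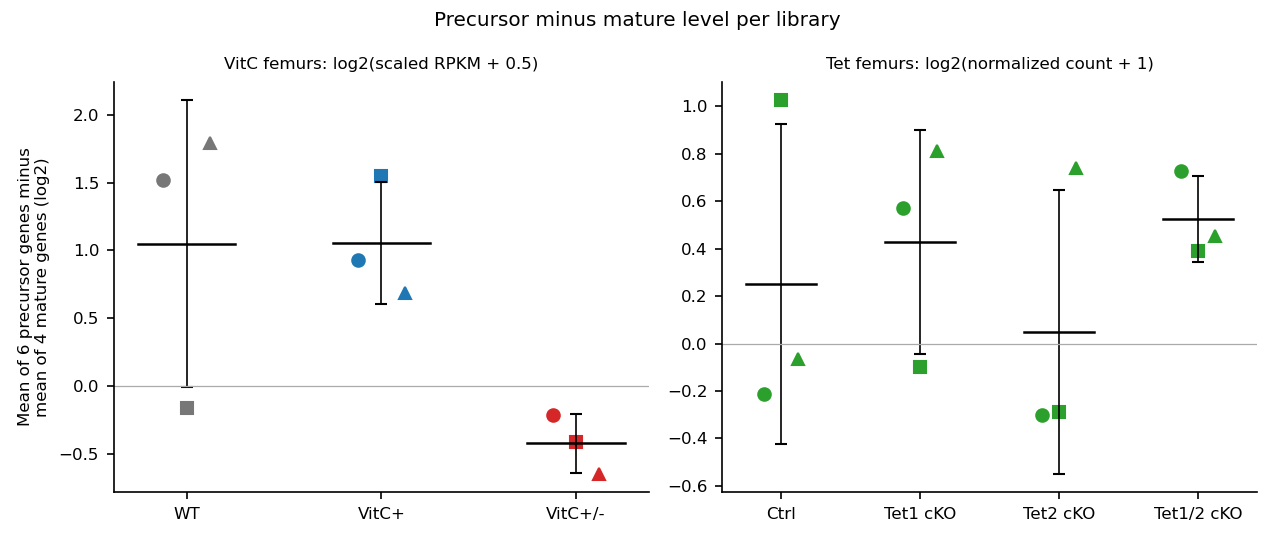
Mean log2 level of the 6 precursor genes minus that of the 4 mature genes in each femur library (symbols), with the group mean (bar) and SD (error bar, n = 3), for the VitC femurs on the log2(scaled RPKM + 0.5) scale and the Tet femurs on the log2(normalized count + 1) scale. The 3 VitC+/- libraries lie between -0.65 and -0.21, below the VitC+ libraries at 0.685 to 1.55, with WT 2 at -0.16 between them, and the Tet groups overlap.

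Vpreb3, which binds heavy chains in precursor and immature B cells, had the most negative log2 fold change of the 37 tested members on the scale with 0.5 added. It was at 15.6, 30.1 and 31.4 in VitC+ and at 0.694, 0.907 and 0.867 in VitC+/- (log2 fold change -4.25, SE 0.56, adjusted p = 0.00329). The mean in VitC+ was 31.2 times that in VitC+/-, a smaller ratio than those of Rag1 (198), Igll1 (67.9) and Vpreb1 (56.1).

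Of the 8 transcription factors, 4 were called lower and none higher. Pax5, which holds cells to the B lineage, was at 6.15, 11.0 and 8.21 in VitC+ and at 0.438, 1.00 and 1.38 in VitC+/- (log2 fold change -2.66, SE 0.72, adjusted p = 0.0420). Its call was lost in each fit that left out 1 library, with an adjusted p of up to 0.136. Spib, an Ets factor of B cells and plasmacytoid dendritic cells, fell from 8.24, 11.1 and 13.6 to 0.829, 1.27 and 1.87 (log2 fold change -2.67, SE 0.31, adjusted p = 0.00205). Pou2af1, an octamer coactivator of B cells, fell from 5.12, 8.60 and 7.88 to 0.781, 2.07 and 1.42 (log2 fold change -2.03, SE 0.37, adjusted p = 0.0109). Ikzf3, which acts at the pre-B transition, fell by 0.86 on the log2 scale (SE 0.24, adjusted p = 0.0460).

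Ebf1, the factor that opens the B cell program and is also expressed in adipocyte and stromal precursors, took a different course from Pax5. Its values of 2.71, 3.47 and 4.27 in VitC+ overlapped those of 3.52, 4.86 and 3.68 in VitC+/- (log2 fold change 0.19, 95% interval -0.34 to 0.72, adjusted p = 0.627). Lef1, a Wnt pathway factor of early B and T cells, had a log2 fold change of 0.10 (adjusted p = 0.843). Bach2, a repressor of the plasma cell program, and Pou2f2, the octamer factor Oct-2, had -0.73 (adjusted p = 0.0904) and -0.45 (adjusted p = 0.138). Both had groups that did not overlap, a pattern with lower values after withdrawal that 19.1% of all genes tested showed and that 27 of the 39 members showed.

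Of the 7 genes of B cell receptor signalling, 6 were called lower. Cd79a and Cd79b encode the signalling chains of the receptor. Cd79a was at 14.6, 24.8 and 35.1 in VitC+ and at 2.50, 6.47 and 5.78 in VitC+/- (log2 fold change -2.23, SE 0.47, adjusted p = 0.0172). Cd79b was at 21.8, 32.9 and 41.9 and fell to 5.07, 10.5 and 8.24 (log2 fold change -1.96, SE 0.37, adjusted p = 0.0121). The adaptor Blnk fell by 1.59 on the log2 scale (adjusted p = 0.0185), the Src family kinase Blk fell by 1.48 (adjusted p = 0.0185) and the scaffold Bank1 fell by 1.36 (adjusted p = 0.0124). Btk, a kinase that myeloid cells also express, fell by 1.03 (SE 0.17, adjusted p = 0.00812) from 21.8, 26.9 and 22.5 to 11.5, 14.2 and 8.86. Syk, the kinase upstream of Btk and broadly expressed in blood cells, was at 28.5 to 34.1 in VitC+ and at 25.3 to 40.6 in VitC+/- (log2 fold change 0.05, 95% interval -0.36 to 0.47, adjusted p = 0.875).

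Of the 10 surface and survival genes, 5 were called lower. Ly6d, a surface protein that marks commitment of lymphoid progenitors to the B lineage, was at 16.4, 30.9 and 36.9 in VitC+ and at 2.34, 3.82 and 3.28 in VitC+/- (log2 fold change -2.91, SE 0.33, adjusted p = 0.00173). Fcrla, an Fc receptor-like protein of B cells, was at 4.28, 7.53 and 8.29 and fell to 0.371, 0.597 and 0.546 (log2 fold change -2.80, SE 0.41, adjusted p = 0.00467). Cd72, a B cell co-receptor, fell by 1.86 (adjusted p = 0.0108), Faim3, the IgM Fc receptor, fell by 1.25 (adjusted p = 0.0371) and the leukocyte tetraspanin Cd37 fell by 0.94 (adjusted p = 0.0350) on the log2 scale.

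The receptors for the survival factor BAFF did not pass. Tnfrsf13c, the BAFF receptor, had a log2 fold change of -0.64 (95% interval -1.32 to 0.051, adjusted p = 0.189), with 1.86 to 3.67 in VitC+ and 1.39 to 1.78 in VitC+/-. Tnfrsf13b, the receptor TACI, had -0.03 (-0.57 to 0.51, adjusted p = 0.949). The follicle-homing receptor Cxcr5 had -0.21 (adjusted p = 0.621), the complement regulator Cd55 had -0.40 (adjusted p = 0.514) and Ralgps2, a guanine nucleotide exchange factor, had -0.54 (adjusted p = 0.105).

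Of the 3 plasma cell genes, 1 was called higher and none lower. Sdc1, the plasma cell antigen CD138, which epithelial and stromal cells also carry, was at 15.8, 17.5 and 22.7 in VitC+ and at 46.7, 29.2 and 91.8 in VitC+/-. It was also the 1 member of all 39 called higher (log2 fold change 1.42, SE 0.35, adjusted p = 0.0319). That call was lost in 4 of the 6 fits that left out 1 library. Prdm1, the factor Blimp-1 that drives plasma cell differentiation, was at 3.12 to 3.74 in VitC+ and at 3.75 to 8.99 in VitC+/- (log2 fold change 0.52, 95% interval -0.12 to 1.15, adjusted p = 0.249). Irf4, which acts in pre-B and plasma cells and also in adipocytes, was at 0.803, 22.8 and 1.77 in VitC+/- 1, 2 and 3, against 2.59 to 3.31 in VitC+. A single library, VitC+/- 2, therefore set its group mean. A set of 8 adipocyte genes was chosen after this value was seen (Adipoq, Plin1, Cidec, Fabp4, Lep, Scd1, Retn and Cfd). Its median was 81.3 scaled RPKM in VitC+/- 2 and at most 14.9 in the other 8 libraries, though Lep was at 0 in VitC+/- 2. A link of these genes to the Irf4 value was not tested. Igj, the joining chain of secreted IgM and IgA, is no member and was lower (30.9 to 93.5 in VitC+/- against 117 to 191 in VitC+, log2 fold change -1.57, SE 0.43, adjusted p = 0.0441).

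**Figure D4:**
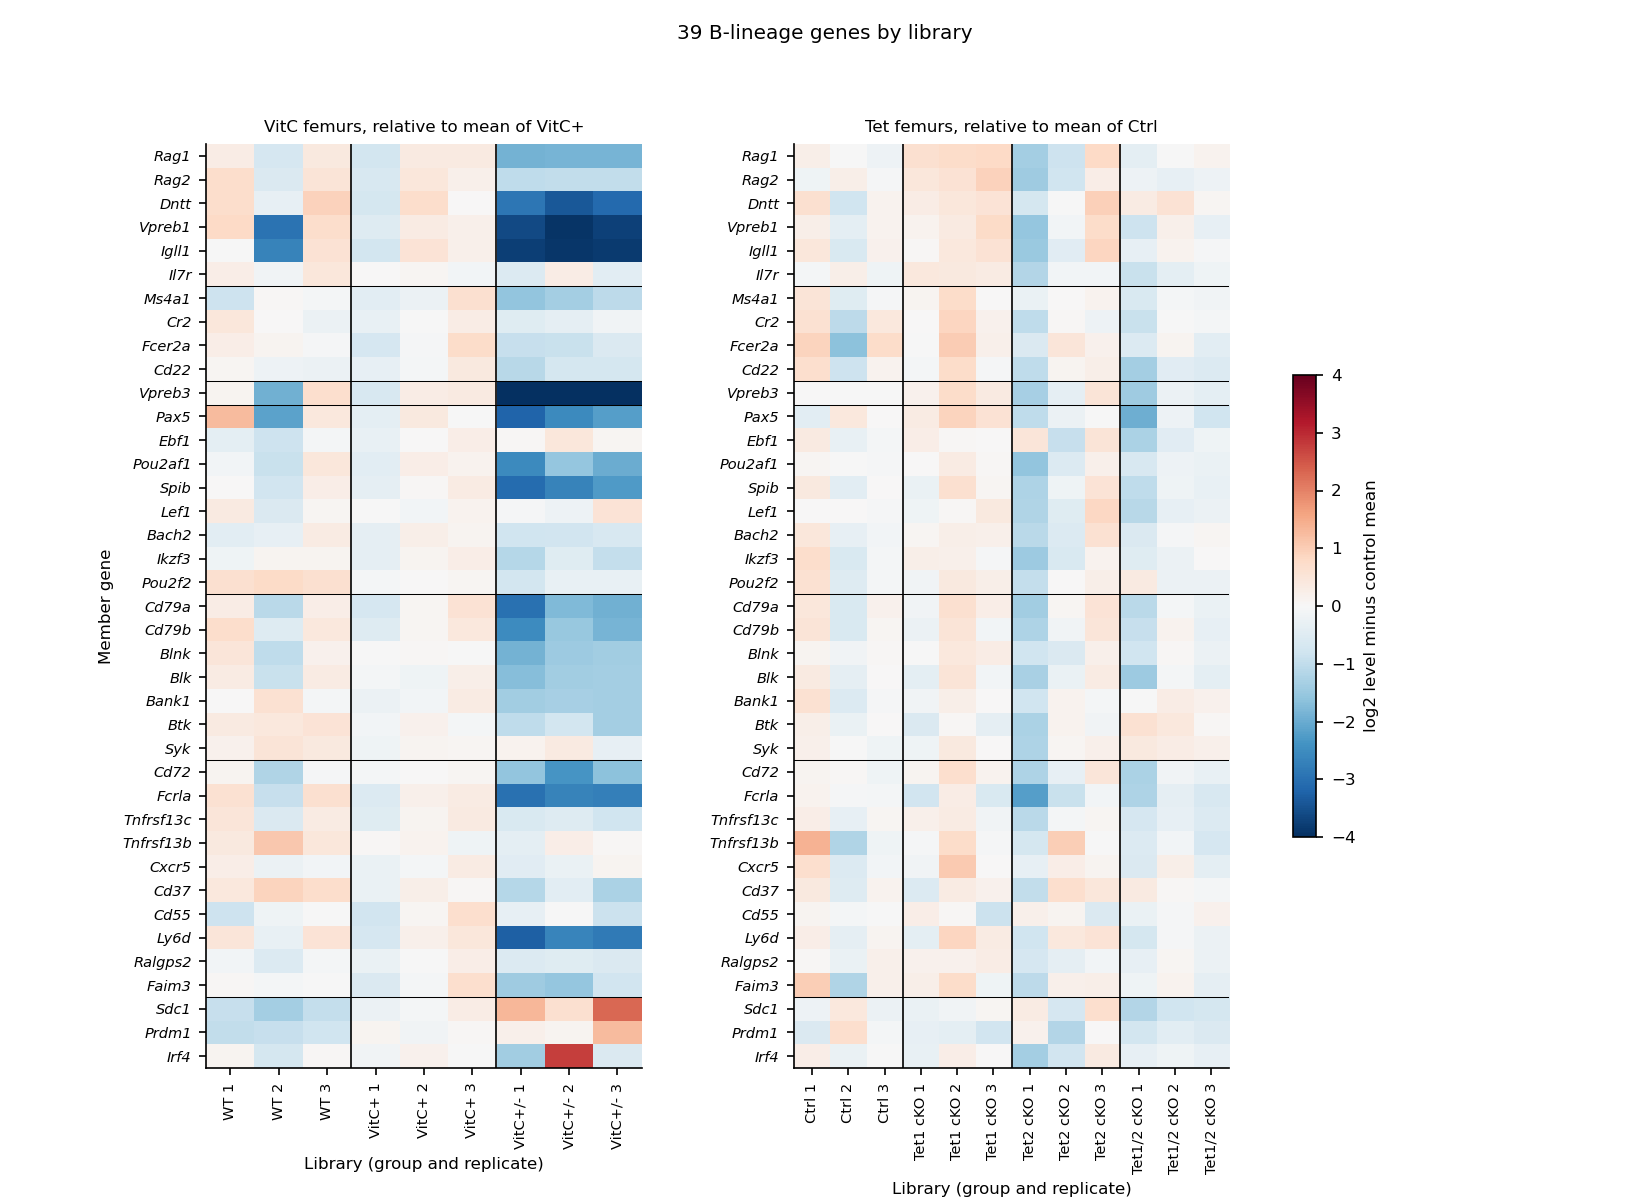
log2 level of each of the 39 members in each library minus the mean of the control group, for the 9 VitC femur libraries (relative to VitC+, log2(scaled RPKM + 0.5)) and the 12 Tet femur libraries (relative to Ctrl, log2(normalized count + 1)). Colors stop at 4 in both directions, horizontal lines separate the roles, WT 2 is blue for Vpreb1, Igll1, Vpreb3 and Pax5, and Tet2 cKO 1 is blue across most members.

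The same VitC+/- libraries were also compared with WT femurs. This contrast shares the VitC+/- libraries with the one above and is given side by side, not as separate support. At an adjusted p under 0.05, 23 members were lower and 2 higher, where 15.9% of all genes tested were called lower and 15.3% higher. Without the filter, which the low genes named above passed only through VitC+ and WT libraries, 20 members were lower and 2 higher. Of all 19717 genes tested there, 1842 were lower and 2039 higher. Without the library labelled WT 3, 17 members were called lower and 2 higher, against 1140 lower and 1134 higher of all 12531 genes tested. Calls lost there included Ms4a1 (adjusted p = 0.124) and Pax5 (adjusted p = 0.0971) by limma. All 22 members lower than in VitC+ were among the 23, and the other one was Pou2f2. The median log2 fold change was -1.21 over all members, -2.50 over the precursor genes and -0.81 over the mature genes, against 0.01 over all genes tested. Without the library labelled WT 3 the precursor median was -2.09 and the mature median was -0.85. In 27 of 39 members every VitC+/- library lay below every WT library, as in 21.3% of all genes tested, a count that leaving out a WT library cannot lower. Pou2f2 was at 2.6, 2.90 and 2.6 in WT 1, 2 and 3 and at 0.689, 1.10 and 1.09 in VitC+/- (log2 fold change -1.14, SE 0.19, adjusted p = 0.00288).

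The values in WT for the genes named above were as follows. Rag1 was at 1.78, 0.658 and 1.92 in WT 1, 2 and 3 (log2 fold change of VitC+/- over WT -1.87, adjusted p = 0.00645). Dntt was at 10.7, 5.07 and 12.5 (-3.55, adjusted p = 6.32e-04). Vpreb1 was at 14.6, 0.635 and 13.8 (-3.27, adjusted p = 0.0169). Each VitC+/- library lay below each WT library for these genes, with WT 2 the nearest for Vpreb1, whose adjusted p rose to 0.0669 without the library labelled WT 3. Vpreb3 was at 26.5, 6.18 and 39.3 (-3.87, adjusted p = 0.00184). Ly6d was at 37.8, 21.6 and 39.4 (-3.17, adjusted p = 4.59e-04). Sdc1 was at 9.42, 6.87 and 9.19, below every VitC+/- library (2.50, SE 0.35, adjusted p = 0.00162). Prdm1 was at 1.5, 1.58 and 1.81, and was called higher in VitC+/- than in WT (1.42, SE 0.28, adjusted p = 0.00637). Both calls held without the library labelled WT 3, with an adjusted p of 0.00884 for Sdc1 and 0.0223 for Prdm1.

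WT and VitC+ femurs, which both had VitC, were compared to see how far the lineage varies without withdrawal. No member passed (0.0% of all genes tested passed), and 6 of 37 members and 2769 of all 12586 genes had an unadjusted p under 0.05 by limma. The median log2 fold change over the 39 members was -0.04. The spread among these libraries differed from gene to gene. Vpreb1 differed 23.0-fold between the highest and the lowest of the 6 libraries with VitC, Igll1 14.1-fold and Pax5 14.1-fold, in each case with WT 2 the lowest. The same ratio was 7.27 for Rag2, 3.35 for Dntt, 3.07 for Rag1 and 1.63 for Il7r, against 1.81 to 4.47 for the 4 mature genes. The lowest value among these 6 libraries was in WT 2 for 19 of 39 members and in VitC+ 1 for 15. Among the mature genes, Cr2, Fcer2a and Cd22 were lowest in VitC+ 1 and Ms4a1 was lowest in WT 1. Ms4a1 was at 1.38, 2.94 and 2.65 and Cd22 at 2.73, 2.17 and 2.09 in WT 1, 2 and 3. Sdc1 and Prdm1 had each WT library below each VitC+ library, with log2 fold changes of WT over VitC+ of -1.09 (adjusted p = 0.137) and -0.90 (adjusted p = 0.132).

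A further 36 genes of the B lineage were listed from textbook knowledge. Of the 34 that passed the filter, 5 were lower and none higher in VitC+/- than in VitC+, with a median log2 fold change of -0.19. They included H2-Ob, a B cell chain that modulates class II loading, at 3.19 to 5.17 in VitC+ and 0.855 to 1.3 in VitC+/- (log2 fold change -1.55, SE 0.32, adjusted p = 0.0165). Tcf3, which encodes the E proteins that bind E-boxes, was at 17.3 to 23.6 in VitC+ and 20.0 to 21.1 in VitC+/- (log2 fold change 0.03, adjusted p = 0.924). Against WT, 14 of the 34 were lower and 3 higher. Of 5 tested genes of germinal centre and activated B cells, 1 was lower than in VitC+, Gcsam, at 0.323 to 0.739 against 1.55 to 3.27 (-1.38, adjusted p = 0.0238).

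Among 14 tested genes of the bone niche for B cells, 2 were lower and 2 higher in VitC+/- than in VitC+. Il7, the cytokine that drives division of B cell precursors, was at 1.61 to 2.55 in VitC+ and 0.233 to 0.503 in VitC+/- (log2 fold change -1.53, SE 0.35, adjusted p = 0.0250). Tnfsf13b, which encodes BAFF, was at 5.33 to 6.55 in VitC+ and 0.756 to 1.36 in VitC+/- (-2.05, SE 0.19, adjusted p = 6.80e-04). Tnfsf11, the osteoclast factor RANKL, which also acts in lymphocyte development, was at 2.66 to 5.07 in VitC+ and 16.1 to 18.0 in VitC+/- (2.0, SE 0.21, adjusted p = 0.00132). Kitl, the stem cell factor, was the other one called higher (0.67, adjusted p = 0.0410). Cxcl12, the chemokine that retains B cell precursors in marrow, overlapped at 117 to 185 and 120 to 250 (0.02, adjusted p = 0.968). Against WT, 3 were lower (Tnfsf13b, Il7 and the BAFF homolog Tnfsf13) and 3 higher, and Tnfsf13 had a log2 fold change of -1.41 (adjusted p = 0.0136).

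Markers of other cells also differed between these libraries. The summed scaled RPKM of 18 T and NK cell genes was 108 to 146 in VitC+ and 35.5 to 66.8 in VitC+/-, with 3 of 16 tested genes lower, among them Nkg7 (-1.73, adjusted p = 0.0237). The sum of 17 neutrophil genes was 31370 to 49520 in VitC+ and 8888 to 26880 in VitC+/-, with 4 of 17 lower, among them Ltf, and 1 higher (Ltf -2.23, adjusted p = 0.00734). The sum of 10 progenitor genes was 128 to 147 in VitC+ and 75 to 98.9 in VitC+/-, with 2 of 10 lower, among them Cd48 (-1.41, adjusted p = 9.83e-04). Sums overlapped for 16 erythroid genes (2813 to 5124 and 2107 to 4209, 5 higher), 12 macrophage and monocyte genes (465 to 551 and 477 to 607, 2 lower and 2 higher) and 24 proliferation genes (556 to 808 and 578 to 769, none called, 0 of 24). The 16 osteoblast and osteocyte genes summed to 7079 to 12340 in VitC+, to 2990 to 8629 in VitC+/- and to 1411 to 4578 in WT, with 8 lower in VitC+/- than in VitC+, among them Bglap, and 1 higher (Bglap -7.53, adjusted p = 6.80e-04). No gene of these lists was at 0 in all libraries of a VitC group. The part of these differences in the member values was not tested.

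The conditional loss of Tet enzymes, which oxidize 5-methylcytosine to 5-hydroxymethylcytosine (5hmC), was examined for the same 39 genes. All 39 passed the filter of 10 normalized counts in 3 of 12 libraries. None was called in any Tet group, where 0.0119% of the 16780 genes tested were called in Tet1 cKO, 0.0119% in Tet2 cKO and 0.0% in Tet1/2 cKO. By unadjusted limma p under 0.05 the member counts were 0, 1 and 2 of 39, against 382, 368 and 847 of all 16780 genes tested. The edgeR and DESeq2 fits on the recovered reads called no member either. The median log2 fold change of the members was 0.20 in Tet1 cKO, -0.32 in Tet2 cKO and -0.32 in Tet1/2 cKO, against -0.01 over all genes in each. All 3 groups share the Ctrl libraries.

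Rag1 was at 2807, 2355 and 2052 normalized counts in Ctrl 1, 2 and 3, at 3680, 3974 and 4141 in Tet1 cKO, at 925, 1342 and 4112 in Tet2 cKO and at 1834, 2372 and 2619 in Tet1/2 cKO. The Tet1 cKO values lay above all Ctrl values, but the log2 fold change of 0.72 had a 95% interval of -0.21 to 1.65 (adjusted p = 0.9998). Vpreb1 was at 548, 352 and 507 in Ctrl and at 260, 530 and 365 in Tet1/2 cKO (log2 fold change -0.32, 95% interval -1.40 to 0.76, adjusted p = 0.838). Ms4a1 was at 1715, 849 and 1162 in Ctrl and at 777, 1129 and 1082 in Tet1/2 cKO (-0.28, -0.90 to 0.34, adjusted p = 0.765). For Rag1 in Tet1/2 cKO the log2 fold change was -0.08 with a 95% interval of -1.01 to 0.84 (adjusted p = 0.952).

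The members with an unadjusted p under 0.05 were Fcrla in Tet2 cKO and Pax5 and Sdc1 in Tet1/2 cKO. Fcrla was at 2594, 2259 and 2222 in Ctrl and at 508, 1263 and 2180 in Tet2 cKO (log2 fold change -1.07, SE 0.46, adjusted p = 0.9998). Pax5 was at 613, 1093 and 836 in Ctrl and at 211, 709 and 472 in Tet1/2 cKO, with overlap (-0.99, SE 0.42, adjusted p = 0.723). Sdc1 was at 674, 1051 and 660 in Ctrl and at 342, 442 and 481 in Tet1/2 cKO, without overlap (-0.89, SE 0.33, adjusted p = 0.723), the opposite sign to its change after VitC withdrawal. Tet2 cKO 1 had the lowest value of all 12 libraries for 23 of 39 members and Tet1/2 cKO 1 for 9.

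The precursor minus mature difference did not separate the Tet groups. On normalized counts, which are not per length, it was -0.21, 1.03 and -0.06 in Ctrl 1, 2 and 3, and the group means were 0.25 ± 0.68 in Ctrl, 0.43 ± 0.47 in Tet1 cKO, 0.05 ± 0.60 in Tet2 cKO and 0.52 ± 0.18 in Tet1/2 cKO (SD, n = 3). None of the 36 further B-lineage genes, the 12 immunoglobulin genes or the 15 niche genes was called by limma in any Tet group. The median log2 fold change of the 12 immunoglobulin genes was -1.14 in Tet1 cKO, -1.28 in Tet2 cKO and -0.38 in Tet1/2 cKO. Ighm, the mu heavy chain, was at 67420 to 99230 in Ctrl and 31590 to 78460 in Tet1/2 cKO (log2 fold change -0.57, SE 0.54, adjusted p = 0.755), and Igkc, the kappa constant region, was at 32470 to 49610 and 13460 to 50720 (-0.44, SE 0.58, adjusted p = 0.812). The most abundant genes of the other lists did not pass, with Cd24a at 0.56, Ikzf1 at 0.38, Sparc at -0.99 and Cxcl12 at -0.31 on the log2 scale (adjusted p between 0.723 and 0.799).

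Peaks of 5hmC within 30 kb of the start sites were read for 38 members from lists called on pooled libraries, so these values have no replicate check. Btk was not analysed here. The peaks covered 175.5 Mb in VitC+ and 175.0 Mb in VitC+/-, and 273.4 Mb in Ctrl and 122.9 Mb in Tet1/2 cKO. Around the members the median log2 ratio of covered length, with 1000 bases added to each, was -0.10 for VitC+/- over VitC+, against -0.08 over all 20558 coding genes. Covered length was lower for 23 members and higher for 15, against 11982 lower and 8294 higher of all 20558 coding genes. The median ratio was -0.05 for the 6 precursor genes and 0.35 for the 4 mature genes. Vpreb1 had 2713 bases covered in VitC+ and 2528 in VitC+/-, Igll1 had 2305 and 2937, and Rag1 had 6190 and 5112. 2 of these 3 lengths were shorter and 1 was longer in VitC+/-, where the transcripts of all 3 were called lower. The windows of Vpreb1 and Igll1 overlap for the most part and those of Rag1 and Rag2 in part. Each of these pairs can count the same peaks, so their lengths are not separate values.

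In Tet1/2 cKO the covered length was lower than in Ctrl for 36 of 38 members and equal for the other 2, Pax5 and Cr2, which had no peak in either list. The median log2 ratio was -1.04, against -0.95 over all coding genes, of which 17287 of 20558 were lower. Near Vpreb1 it went from 4914 to 146 bases and near Igll1 from 3690 to 0, while neither transcript was called.

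**Figure D5:**
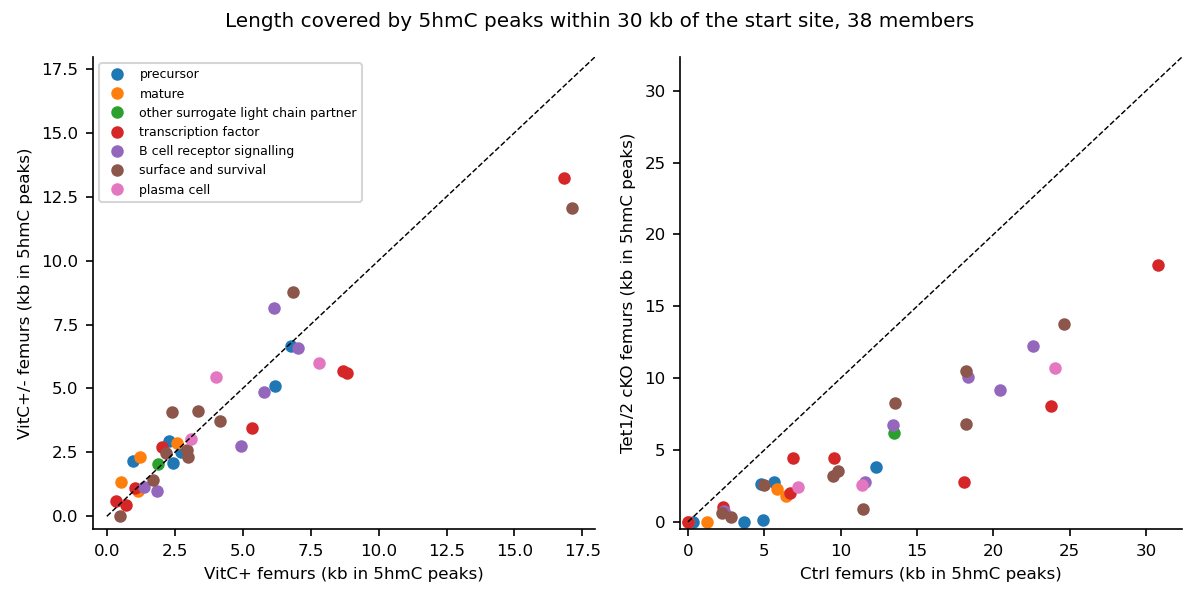
Length covered by 5hmC peaks, in kb, within 30 kb of the start site of each of 38 members, VitC+/- against VitC+ (left) and Tet1/2 cKO against Ctrl (right). Each point is a member colored by role, the dashed line marks equal length, and points scatter on both sides of the line on the left (23 lower, 15 higher) and lie on or below it on the right (36 lower, 2 equal).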

How the data were processed

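The authors deposited RPKM values per gene for each VitC femur library and, for the Tet femurs, normalized counts (a signal, gene counts divided by a size factor). By the study's methods and the submitters' notes, reads were aligned to mm10 with STAR 2.6.0b-1, counted with featureCounts 1.6.3 and scaled with DESeq2 2.11.40.2. Deposited 5hmC peak lists carry a −log10 q-value per peak from MACS2, called on pooled libraries. The members and gene lists were chosen with earlier results of these data known.

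RPKM were scaled by median-of-ratios factors (0.757 to 1.10) and tested as log2(value + 0.5), over genes with RPKM of at least 1 in 3 of 9 libraries. Normalized counts were tested as log2(value + 1), over genes with at least 10 in 3 of 12 libraries. The test was limma 3.58.1 with an intensity trend in R 4.3.3 over all groups of an experiment, with Benjamini-Hochberg adjustment over all genes and a threshold of 0.05. Scripts were tested on simulated data. Depth was recovered from whole-read steps: 93.0 to 96.7% of low RPKM values were within 0.1 of a whole read. Tet normalized counts came out as whole reads within 0.01 (100.0% in each library), and edgeR 4.0.16 and DESeq2 1.42.0 were run on these as alternatives, leaving out Tet1 cKO 3, whose size factor is close to 1. Read ratios carry exact Clopper-Pearson intervals. The text names all members, the targeted genes, and from each other list up to 3 called genes with the largest change or the 2 most abundant. Other named genes (Tcf3, Vpreb2, Kitl, the adipocyte genes) were added after their values were seen. Cultured MC3T3-E1 peak lists were not used. Some results of the further B-lineage list are not reported here.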

Additional observations from a re-analysis of the deposited data

How the results depend on the processing

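No called result changed direction under an alternative, and the cause of each move below was not tested. Uncalled medians and differences did change sign, among them the Tet1 cKO mature median (0.32, and -0.19 without Ctrl 2), the Tet2 cKO precursor median (-0.41, and 0.09 without Tet2 cKO 1) and the Tet2 cKO precursor minus mature difference from Ctrl (-0.20, and 0.19 without Ctrl 2). For VitC+/- against VitC+, 1692 genes were called, 876 without scaling and 487 to 1306 when 1 library was left out. Members called lower numbered 22, and 17 without scaling, 16 without the filter and 18 with only the 2 groups in the fit. They numbered 9 to 18 when 1 library was left out. Members called higher numbered 1, 0 without the filter, and 0 to 1 when 1 library was left out. Without scaling, the share of calls that were lower moved from 55.9% to 46.0%, and the median of all genes from 0.02 to 0.14. The precursor median of -2.50 was -3.90 with a pseudocount of 0.1, -1.89 with 1, and -2.90 to -2.23 when 1 library was left out. The precursor minus mature difference between these groups of -1.48 was -2.29 with a pseudocount of 0.1, -1.84 with medians over genes, -1.89 without Il7r and -1.92 as a ratio of sums, chosen after seeing the data. For VitC+/- against WT, 3934 genes were called, 2274 to 4113 when 1 library was left out. The precursor median was -4.05 with a pseudocount of 0.1, and the mature median was -1.16 with 0.1 and -0.60 with 1. Without scaling, 42.4% instead of 50.9% of these calls were lower.

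The labels link same-numbered libraries by a number only, and whether they share more was not tested. Correlations of their deviations were -0.49 to 0.46, against -0.40 to 0.45 for the other pairs. With the replicate block, WT against VitC+ gave 774 calls instead of 0, with 1 member lower (Sdc1) and 1 higher (Cd37), and it gave 0 to 604 when 1 library was left out, with 604 without WT 1. The block gave 2169 and 4465 calls for VitC+/- against VitC+ and WT, and 0 in Tet1 cKO and 0 in Tet2 cKO. The edgeR and DESeq2 fits also left out Tet1 cKO 3, so they changed tool and library together. Tet1 cKO had 2 calls, 0 by edgeR, 13 by DESeq2 and 0 to 4 when 1 library was left out. Tet2 cKO had 2, 0 with only its groups in the fit, 1 by edgeR, 15 by DESeq2 and 0 to 4 when 1 library was left out. Tet1/2 cKO had 0, and 11 by DESeq2. The median 5hmC ratio in Tet1/2 cKO of -1.04 was -0.80 within 10 kb, -1.33 for peaks with −log10 q of at least 5 and -0.92 for the number of peaks.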
